A study of Mus musculus with 10 samples.

Results

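A set of 40 genes of liver nitrogen and carbon handling, of the 52459 genes in the table, was followed across 10 RNA sequencing libraries of mouse liver tumours. They were chosen by symbol from textbook pathways, namely 6 genes of the urea cycle, 8 of glutamate, alanine, ornithine and proline use, 5 of tyrosine breakdown, 4 of tryptophan breakdown, 5 of histidine and serine breakdown, 3 of glycine and glyoxylate use, 5 of the methionine cycle and cysteine synthesis, and 4 of gluconeogenesis. The choice was made with earlier results of these data known. All 40 were found in the table and tested, and 35 were at 0.5 FPKM or more in all 10 libraries (FPKM, fragments mapped to a gene, scaled by its length and by the size of the library).

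The tumours were primary hepatocellular carcinomas (HCC) of transgenic mice on an FVB/N background. In the 5 *MYC*-HCC libraries the mice carried LAP-tTA, which drives the tetracycline transactivator from the liver-enriched activator protein promoter, and the TRE-*MYC* transgene. In the 5 *MYC*/*Twist1*-HCC libraries they carried a TRE-*Twist1*/Luc transgene as well, so both groups share LAP-tTA and *MYC* and differ in *Twist1* and luciferase. The transgenes were switched on in adult mice by withdrawing doxycycline, and there was no group without *MYC*. The age at tissue collection and whether the libraries of a group came from separate mice are not given in the sources used here, so p-values measure the spread between these libraries. The *MYC*-HCC columns share a heading and are numbered here by column order, while the *MYC*/*Twist1*-HCC libraries are numbered as labelled, and wherever 5 values are listed they are FPKM from library 1 to library 5.

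Normal hepatocytes turn amino acid nitrogen into urea, and they pass the remaining carbon skeletons to the citric acid cycle or to glucose. Many of these enzymes are abundant in adult liver and scarce in most other tissues, and many rise as the liver matures around birth. Many, such as the urea cycle enzymes, histidase, serine dehydratase and phosphoenolpyruvate carboxykinase, are highest in hepatocytes near the portal vein, and several are induced by glucagon and glucocorticoids during fasting.

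Depth estimated from the FPKM steps of short genes was 19.2 to 23.8 M reads per library. Twist1, the transgene that separates the groups, was at 0.06, 0, 0.19, 0.29 and 0.11 in *MYC*-HCC against 2.56, 26.1, 77.2, 1.62 and 2.21 in *MYC*/*Twist1*-HCC. All 5 *MYC*/*Twist1*-HCC libraries exceeded all 5 *MYC*-HCC libraries, and replicates 2 and 3 stood over the other 3. *MYC*-HCC library 4 stood apart from the other 4 of its group. Alpha-fetoprotein (Afp), a fetal liver protein of liver tumours, was at 1122, 736, 1180.3, 3.11 and 1479 in *MYC*-HCC against 2682, 6156, 1896, 970.1 and 4031 in *MYC*/*Twist1*-HCC, and carbonic anhydrase 3 (Car3), abundant in adult mouse liver, reached 2444 FPKM in library 4 where the other 9 ranged from 0.63 to 30.3 FPKM. The differences of the 40 genes are therefore given with and without that library.

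Summed over the 40 genes, the level was 1534, 1029.7, 1476, 3990.1 and 1499 in *MYC*-HCC against 2184, 1675, 3158, 1733 and 2787 in *MYC*/*Twist1*-HCC. All 5 *MYC*/*Twist1*-HCC sums lay above the 4 *MYC*-HCC sums other than that of library 4, which was the highest of the 10. Library 4 was highest of all 10 libraries for 16 of the genes and above the other 4 *MYC*-HCC libraries for 33, whereas *MYC*-HCC library 2 was lowest of all for 23. Among the *MYC*/*Twist1*-HCC tumours replicate 3 was highest of the 10 for 13 genes and replicate 5 for 8. Such counts were not made over all genes, so they do not show a pattern particular to the 40. In bulk tissue, fewer hepatocyte-like cells and less RNA of these genes per cell cannot be told apart.

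**Figure D1:**
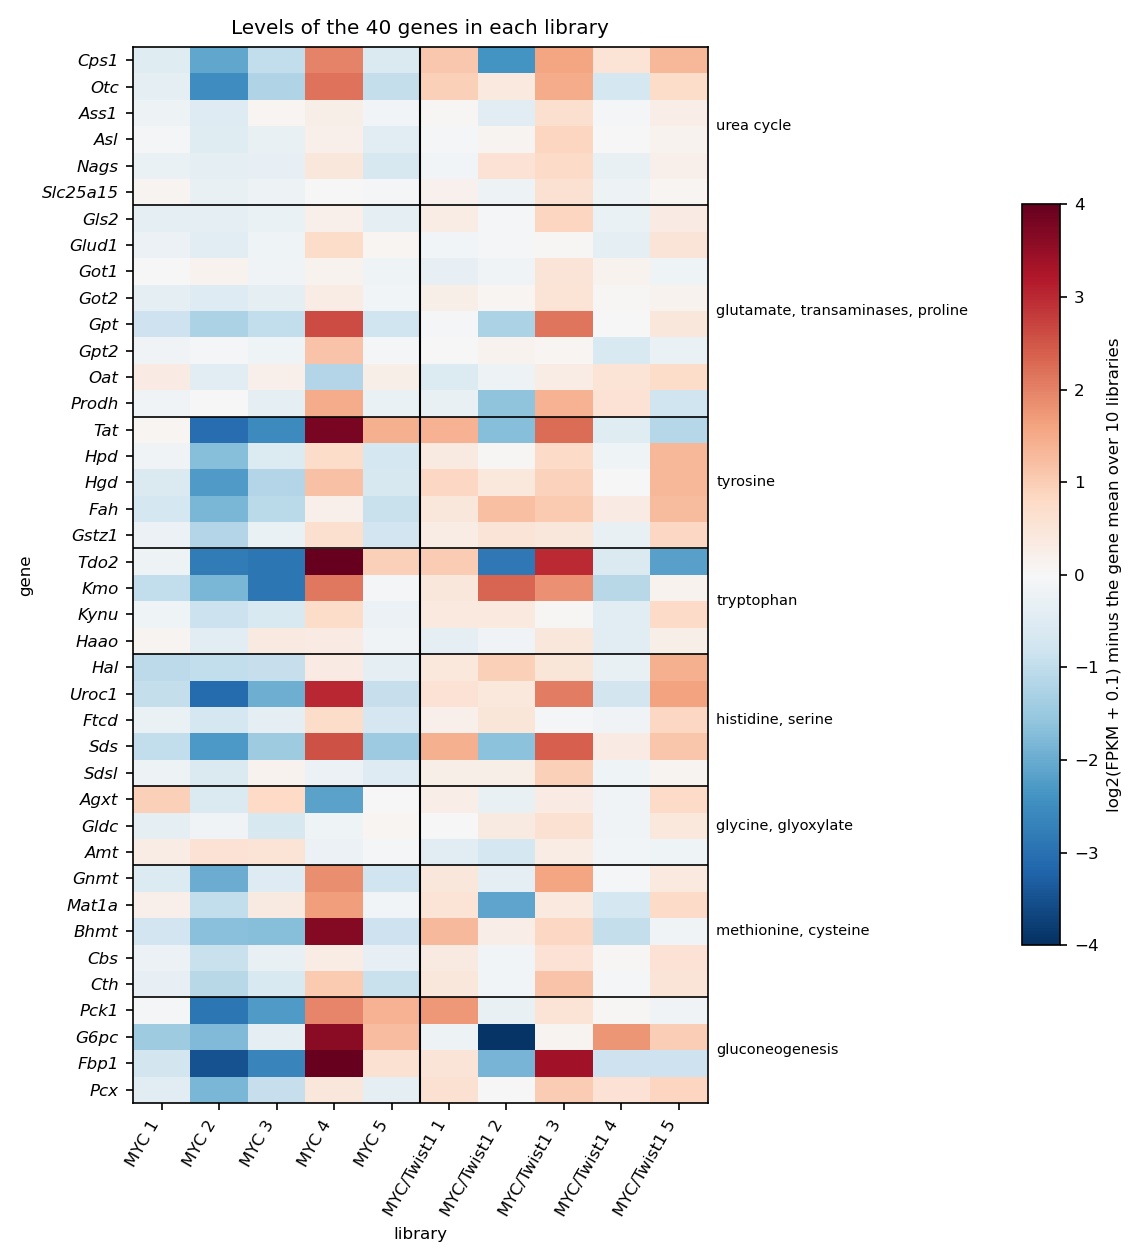
Each row is a gene, each column a library, and colour is log2(FPKM + 0.1) minus the mean of that gene over the 10 libraries, with values past 4 or -4 drawn in the end colours. *MYC*-HCC library 4 is darker red than the other *MYC*-HCC libraries in most rows, and *MYC*-HCC library 2 is the bluest.

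With all 10 libraries in the fit, 0 of the 40 genes passed an adjusted p of 0.05 in either direction (limma, two-sided, Benjamini-Hochberg over 12146 genes), where 0.0247% of all genes tested were called higher and 0% lower in *MYC*/*Twist1*-HCC. Before adjustment, 10 of the 40 had p under 0.05 with a higher and 0 with a lower value, against 7.83% and 8.51% of all genes. The log2 difference, *MYC*/*Twist1*-HCC minus *MYC*-HCC, was above 0 in 33 of the 40 (82.5%) and in 45.9% of all genes, and its median was 0.48 beside -0.04 over all genes. The *MYC*/*Twist1*-HCC values lay wholly above the *MYC*-HCC values for 1 gene, Fah, and wholly below for 0 (2.35% and 1.67% of all genes).

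Without *MYC*-HCC library 4, 10 of the 40 genes (25%) were called higher and 0 lower, where 4.33% of all genes were called higher and 4.72% lower. The 10 were Fah, Hgd and Gstz1 of tyrosine breakdown, Hal and Uroc1 of histidine breakdown, Cbs and Cth of cysteine synthesis, Otc of the urea cycle, Got2 of the transaminases and Pcx of gluconeogenesis. Library 4 was set aside after its values were seen. It lay above the other 4 *MYC*-HCC libraries for all 10 of these genes, so leaving it out raised each of their differences. Before adjustment, 23 had p under 0.05 in the higher direction and 1, Amt, in the lower, against 12.8% and 18.3% of all genes. The groups did not overlap for 11 genes, all higher in *MYC*/*Twist1*-HCC (6.04% of all genes were higher and 9.64% lower). The log2 difference was above 0 in 35 of the 40 and in 45.3% of all genes, and the median log2 difference was 0.75 beside -0.06 over all genes. Leaving out any one of the other 9 libraries gave 0 calls, and a fit that weighted the libraries by their own scatter, with library 4 given the lowest weight (0.184), gave 10 higher and 1 lower (8.3% and 12.1% of all genes), of which 8 were shared with the calls without library 4. As library 4 counts for little in the weighted fit, the shared calls are not independent of leaving it out.

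**Figure D2:**
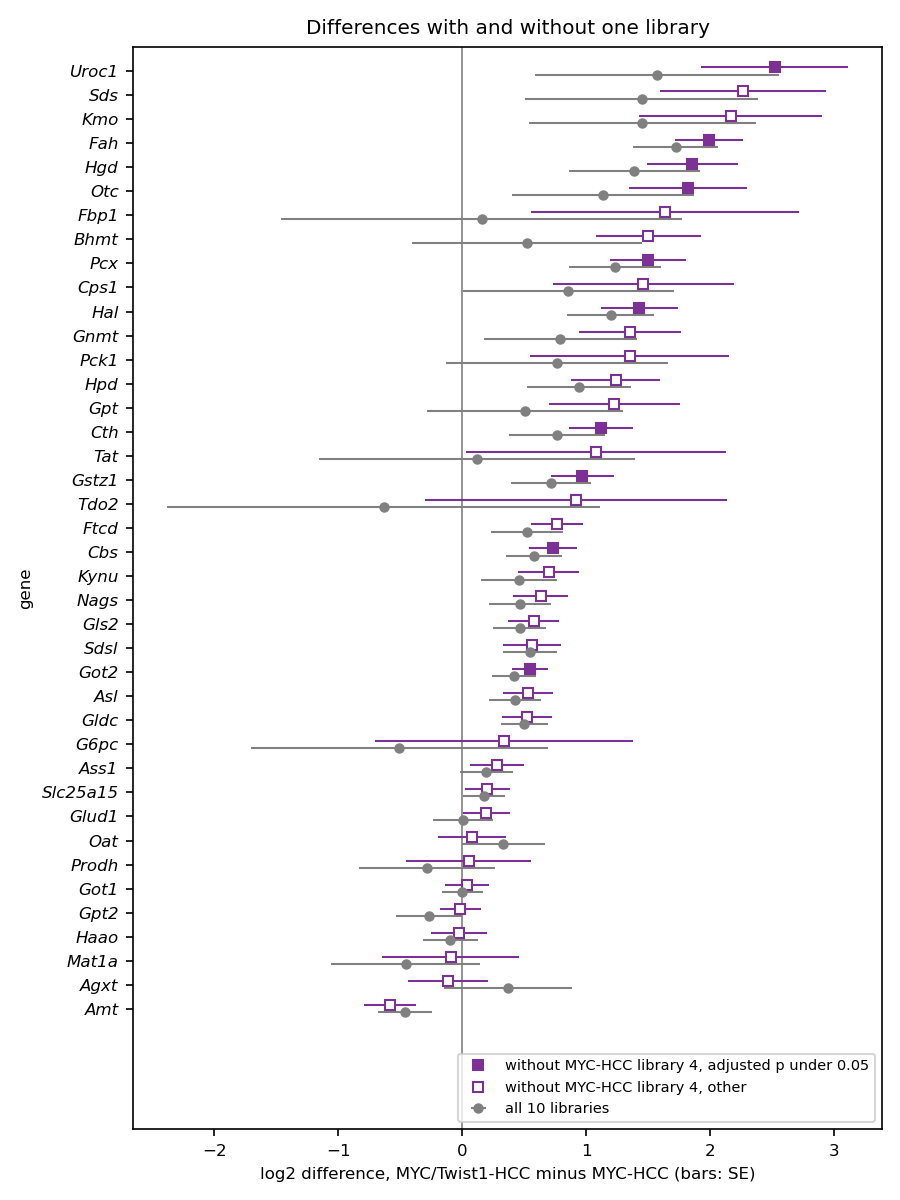
Points are log2 differences in FPKM + 0.1 between 5 *MYC*/*Twist1*-HCC and 5 *MYC*-HCC libraries (grey) or 4 *MYC*-HCC libraries (purple), with bars of 1 standard error. Filled squares mark the 10 genes with an adjusted p under 0.05 without library 4, and most purple points lie to the right of the grey ones.

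The 4 genes with the smallest adjusted p without library 4 were Fah, Hgd, Pcx and Hal, and the 250 bases before the RefSeq start of each are shown as the sequence context of these genes. The sequences are from RefSeq on GRCm38.p6, 5′ to 3′ on the strand of the gene, at chr7:84605943-84606192 (minus strand) for Fah, chr16:37579903-37580152 (plus strand) for Hgd, chr10:93488518-93488767 (plus strand) for Hal and chr19:4510222-4510471 (plus strand) for the upstream start of Pcx. Capitals mark matches, on either strand, to the E-box bound by MYC (CACGTG), the C/EBP site (TTGCNNAA) or the TATA box (TATAAA).
Fah: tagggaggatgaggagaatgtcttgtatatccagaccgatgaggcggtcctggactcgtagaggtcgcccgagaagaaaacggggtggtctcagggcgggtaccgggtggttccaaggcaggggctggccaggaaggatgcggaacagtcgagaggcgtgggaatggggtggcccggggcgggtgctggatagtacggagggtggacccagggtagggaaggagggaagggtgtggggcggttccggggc
Hgd: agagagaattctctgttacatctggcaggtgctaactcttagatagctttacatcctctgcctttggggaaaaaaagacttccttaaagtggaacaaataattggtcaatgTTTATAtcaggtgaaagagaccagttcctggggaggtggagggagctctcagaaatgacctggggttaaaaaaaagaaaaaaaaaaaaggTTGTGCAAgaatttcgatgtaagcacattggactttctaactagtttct
Hal: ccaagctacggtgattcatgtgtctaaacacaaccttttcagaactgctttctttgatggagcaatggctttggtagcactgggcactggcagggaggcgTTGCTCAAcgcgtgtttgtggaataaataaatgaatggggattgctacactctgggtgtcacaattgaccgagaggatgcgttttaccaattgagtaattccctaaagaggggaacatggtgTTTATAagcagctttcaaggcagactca
Pcx: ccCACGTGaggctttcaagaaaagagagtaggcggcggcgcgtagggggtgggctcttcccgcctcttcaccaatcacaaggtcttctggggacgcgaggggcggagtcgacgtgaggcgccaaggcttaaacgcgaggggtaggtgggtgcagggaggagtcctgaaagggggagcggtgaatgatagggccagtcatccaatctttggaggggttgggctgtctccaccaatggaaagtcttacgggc
Pcx held the E-box 248 to 243 bases before its upstream start. The window of its downstream start (chr19:4594069-4594318, plus strand) held 0 matches to these motifs, and which start the tumours use was not tested. Hgd held a C/EBP match 49 to 42 bases and Hal 150 to 143 bases before the start, and a TATA match in Hal lay 28 to 23 bases before it. A TATA match in Hgd lay 139 to 134 bases before the start, and Fah had none of these letters in its window. The Fah window lies inside the GENCODE span of the gene (chr7:84585159-84606722, minus strand), so it is not the sequence before the GENCODE start.

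Promoter windows were matched for 31 of the 40 genes, giving 34 windows because some genes have more than 1 start. CACGTG lay in 4 of the 34 (11.8%), those of Ass1, Cbs, Pcx and Slc25a15, and in 6.02% of 32851 windows of all genes. TTGCNNAA lay in 5.88% against 9.56% of all, and TATAAA in 17.6% against 12.4%. CATATG, an E-box bound by Twist1, lay in 1 window, that of Kmo, and in 3.46% of all. The Kmo window (chr1:175631943-175632192, plus strand) lies inside the GENCODE span of the gene (chr1:175620381-175662116), so it is not the sequence before the GENCODE start. Windows of some other genes, such as Tdo2, also lie wholly or in part inside the span of their gene. The HNF1 site lay in 1, that of G6pc (0.371% of all), while TGACGTCA (the cAMP response element), CAAAGTCCA (HNF4A) and TGTTTAC (FOXA) lay in 0, against 1.55%, 0.384% and 3.17% of all windows. No matches of different motifs overlapped in these windows, and a match of letters is not a bound site.

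The enzymes of tyrosine breakdown act in the order Tat (tyrosine aminotransferase), Hpd (4-hydroxyphenylpyruvate dioxygenase), Hgd (homogentisate dioxygenase), Gstz1 (maleylacetoacetate isomerase) and Fah (fumarylacetoacetase), and 3 of the 5 were called higher in *MYC*/*Twist1*-HCC without library 4 (4.33% of all genes). Summed over the 5, the level was 196, 77.3, 154, 438 and 156 in *MYC*-HCC against 347, 372, 456, 248 and 583 in *MYC*/*Twist1*-HCC, so the groups were separate apart from library 4.

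Fah (chr7:84585159-84606722, minus strand), which cleaves fumarylacetoacetate in the last step, was at 44.3, 20.0, 33.7, 82.6 and 38.5 in *MYC*-HCC against 98.9, 163, 148, 89.3 and 174 in *MYC*/*Twist1*-HCC. Every *MYC*/*Twist1*-HCC tumour exceeded every *MYC*-HCC tumour, library 4 included, although the nearest values, 82.6 and 89.3 FPKM, were close. The log2 difference was 1.72 (SE 0.34, adjusted p = 0.0910) over all 10 libraries and 1.99 (SE 0.28, adjusted p = 0.0177) without library 4. Hgd (chr16:37580153-37632020, plus strand), which opens the ring of homogentisate, was at 20.9, 6.45, 13.8, 70.8 and 20.2 in *MYC*-HCC against 55.3, 41.8, 59.6, 30.9 and 78.2 in *MYC*/*Twist1*-HCC. Library 4 fell among the *MYC*/*Twist1*-HCC values and the other 4 *MYC*-HCC libraries lay below all of them. Its log2 difference was 1.39 (SE 0.53, adjusted p = 0.248) over all 10 libraries and 1.86 (SE 0.37, adjusted p = 0.0259) without library 4. Gstz1 (chr12:87147165-87164723, plus strand) was at 39.0, 20.2, 38.0, 71.4 and 26.6 in *MYC*-HCC against 56.1, 64.8, 62.4, 37.3 and 81.3 in *MYC*/*Twist1*-HCC. Replicate 4 fell among the *MYC*-HCC libraries other than library 4, and the remaining 4 replicates lay above those libraries. For Gstz1 the log2 difference was 0.72 (SE 0.32, adjusted p = 0.301) over all 10 libraries and 0.97 (SE 0.26, adjusted p = 0.0452) without library 4.

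Hpd, the iron enzyme that makes homogentisate, was at 88.4, 30.4, 67.9, 163 and 60.5 in *MYC*-HCC against 127, 101, 169, 87.6 and 248 in *MYC*/*Twist1*-HCC. Replicate 4 fell within the range of the *MYC*-HCC libraries other than library 4, and replicate 5 was the highest of the 10. The log2 difference of 0.94 (SE 0.42, adjusted p = 0.301) over all 10 libraries and 1.24 (SE 0.36, adjusted p = 0.0551) without library 4 did not pass. Tat, the rate-limiting and glucocorticoid-induced first enzyme, was at 3.76, 0.34, 0.52, 50.4 and 9.74 in *MYC*-HCC against 9.43, 1.03, 17.0, 2.49 and 1.55 in *MYC*/*Twist1*-HCC. Both groups spread over more than an order of magnitude and overlapped, with library 4 at the top. The log2 difference of Tat was 0.12 and 1.08 with and without library 4, with standard errors of 1.27 and 1.05.

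Histidine breakdown begins with Hal (histidase), which removes ammonia to give urocanate, then Uroc1 (urocanate hydratase), and ends with Ftcd (formiminotransferase cyclodeaminase), which passes the carbon to folate. Hal (chr10:93488768-93519304, plus strand) was at 2.99, 3.16, 3.28, 7.97 and 4.87 in *MYC*-HCC against 8.58, 12.2, 8.83, 5.13 and 17.2 in *MYC*/*Twist1*-HCC. Library 4 overlapped the *MYC*/*Twist1*-HCC values, and the other 4 *MYC*-HCC tumours lay below all 5, the closest pair being 4.87 and 5.13 FPKM. The log2 difference was 1.20 (SE 0.35, adjusted p = 0.172) over all 10 libraries and 1.43 (SE 0.31, adjusted p = 0.0314) without library 4. Uroc1 (chr6:90333284-90364551, plus strand) was at 6.12, 1.33, 2.99, 97.1 and 6.24 in *MYC*-HCC against 18.1, 16.3, 49.5, 7.12 and 36.6 in *MYC*/*Twist1*-HCC. Library 4 was the highest of the 10 and the other *MYC*-HCC libraries were the 4 lowest. Its log2 difference of 1.57 (SE 0.98, adjusted p = 0.435) over all 10 libraries and 2.52 (SE 0.59, adjusted p = 0.0360) without library 4 was the largest of the 40 in the second fit. Ftcd was at 33.5, 24.3, 30.7, 66.0 and 25.0 in *MYC*-HCC against 45.6, 56.4, 37.9, 36.0 and 71.5 in *MYC*/*Twist1*-HCC. Without library 4 the Ftcd groups did not overlap either, and its log2 difference of 0.52 (SE 0.29, adjusted p = 0.388) over all 10 libraries and 0.76 (SE 0.21, adjusted p = 0.0505) without library 4 lay just outside the threshold.

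Serine breakdown to pyruvate is carried by Sds (serine dehydratase), a fasting-induced enzyme, and its relative Sdsl. Sds was at 4.03, 1.58, 2.93, 48.2 and 2.89 in *MYC*-HCC against 22.1, 2.51, 42.9, 10.3 and 17.6 in *MYC*/*Twist1*-HCC. Library 4 was the highest and *MYC*/*Twist1*-HCC replicate 2 fell within the range of the other *MYC*-HCC tumours, while the remaining 4 replicates were above it. For Sds the difference was 1.45 (SE 0.94, adjusted p = 0.449) over all 10 libraries and 2.27 (SE 0.67, adjusted p = 0.0573) without library 4. Sdsl was at 10.2, 7.94, 13.2, 10.2 and 8.35 in *MYC*-HCC against 14.1, 14.0, 23.3, 10.5 and 12.8 in *MYC*/*Twist1*-HCC, and library 4 sat inside its group. For Sdsl the log2 difference was 0.55 (SE 0.22, adjusted p = 0.263) over all 10 libraries and 0.56 (SE 0.23, adjusted p = 0.135) without library 4.

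**Figure D3:**
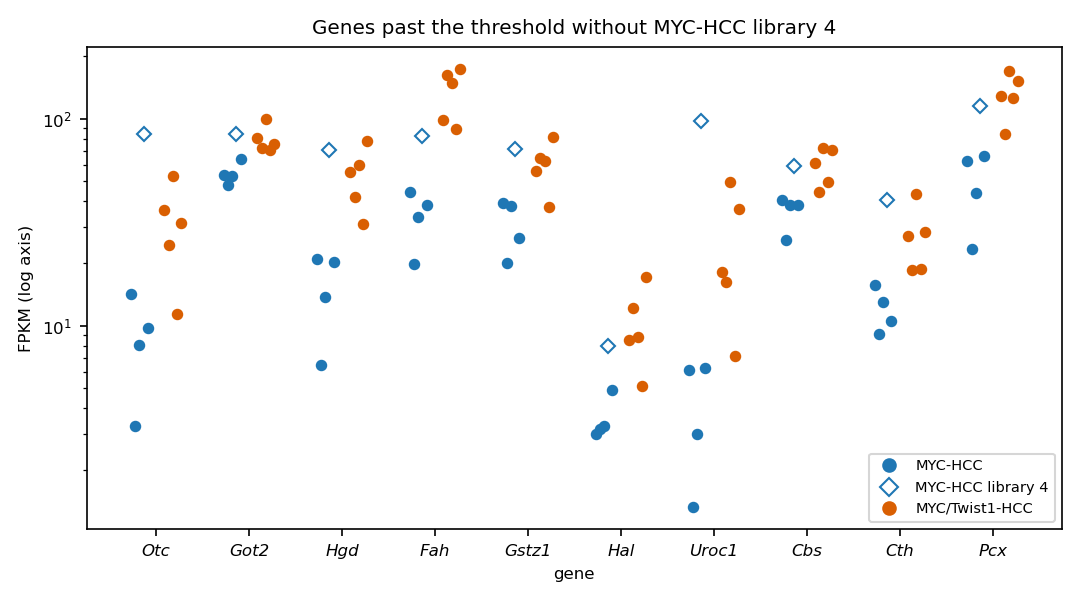
Each point is the FPKM of a library (log axis) for the 10 genes with an adjusted p under 0.05 once *MYC*-HCC library 4 was left out. Open diamonds are that library, which lies inside the *MYC*/*Twist1*-HCC range for 7 of the genes, above it for Otc and Uroc1 and below it for Fah.

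Cysteine is made from methionine through homocysteine. Mat1a makes S-adenosylmethionine in adult liver, Gnmt (glycine N-methyltransferase) consumes the excess, Bhmt remethylates homocysteine with betaine, Cbs (cystathionine beta-synthase) commits it to cysteine, and Cth (cystathionine gamma-lyase) releases the cysteine. Cbs (chr17:31608894-31637238, minus strand) was at 40.4, 25.9, 38.5, 59.4 and 38.2 in *MYC*-HCC against 61.1, 44.4, 72.0, 49.4 and 70.7 in *MYC*/*Twist1*-HCC. The 4 other *MYC*-HCC libraries lay below all 5 *MYC*/*Twist1*-HCC replicates, and library 4 lay among them. For Cbs the difference was 0.58 (SE 0.22, adjusted p = 0.252) over all 10 libraries and 0.73 (SE 0.19, adjusted p = 0.0461) without library 4. Cth (chr3:157894248-157925077, minus strand) was at 15.7, 9.16, 13.1, 40.7 and 10.6 in *MYC*-HCC against 27.0, 18.6, 43.4, 18.8 and 28.3 in *MYC*/*Twist1*-HCC, in the same arrangement. Its log2 difference was 0.76 (SE 0.39, adjusted p = 0.347) over all 10 libraries and 1.12 (SE 0.26, adjusted p = 0.0357) without library 4.

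Gnmt, among the most abundant of the 40 per unit length, was at 65.1, 23.9, 65.4, 341 and 54.9 in *MYC*-HCC against 129.9, 72.8, 282, 89.5 and 124 in *MYC*/*Twist1*-HCC. Apart from library 4, the highest of all, the Gnmt groups were separate, and the log2 difference was 0.79 (SE 0.62, adjusted p = 0.527) over all 10 libraries and 1.35 (SE 0.41, adjusted p = 0.0618) without library 4. Bhmt was at 2.32, 1.19, 1.16, 51.6 and 2.20 in *MYC*-HCC against 9.98, 4.82, 7.16, 2.03 and 3.61 in *MYC*/*Twist1*-HCC. Library 4 stood 22.2-fold over the next *MYC*-HCC library and above every *MYC*/*Twist1*-HCC tumour, and the log2 difference of Bhmt was 0.52 (SE 0.93, adjusted p = 0.806) over all 10 libraries and 1.50 (SE 0.42, adjusted p = 0.0523) without library 4. Mat1a was at 115, 50.2, 128, 319 and 91.8 in *MYC*-HCC against 146, 23.0, 129.5, 61.0 and 168 in *MYC*/*Twist1*-HCC. Its groups overlapped, with *MYC*/*Twist1*-HCC replicate 2 the lowest of the 10, and its log2 difference was -0.46 (SE 0.60, adjusted p = 0.725) over all 10 libraries and -0.09 (SE 0.55, adjusted p = 0.925) without library 4.

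In the urea cycle, Nags makes the N-acetylglutamate that activates Cps1 (carbamoyl phosphate synthetase), Otc joins carbamoyl phosphate to ornithine, Ass1 and Asl make and split argininosuccinate, and Slc25a15 carries ornithine into mitochondria. Otc (chrX:10252305-10321024, plus strand) was the member of the cycle that passed without library 4, at 14.3, 3.29, 8.08, 84.6 and 9.71 in *MYC*-HCC against 36.0, 24.4, 52.6, 11.4 and 31.5 in *MYC*/*Twist1*-HCC. Replicate 4 fell within the range of the *MYC*-HCC libraries other than library 4, and the other 4 replicates lay above that range. Library 4 was the highest of all. For Otc the difference was 1.13 (SE 0.74, adjusted p = 0.449) over all 10 libraries and 1.82 (SE 0.48, adjusted p = 0.0447) without library 4. Cps1 was at 87.4, 29.0, 61.2, 483 and 80.9 in *MYC*-HCC against 255, 23.3, 367, 177 and 306 in *MYC*/*Twist1*-HCC. Replicate 2 was the lowest of the 10 while the other 4 replicates exceeded every *MYC*-HCC library but library 4. The log2 difference of Cps1 was 0.86 (SE 0.85, adjusted p = 0.631) over all 10 libraries and 1.46 (SE 0.73, adjusted p = 0.200) without library 4, and its adjusted p was 0.117 or more in every setting tried.

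Ass1, the step that brings in aspartate nitrogen, was at 178, 143, 214, 241 and 188 in *MYC*-HCC against 209.6, 153, 314, 195 and 246 in *MYC*/*Twist1*-HCC. Its groups overlapped, and the log2 difference was 0.19 (SE 0.22, adjusted p = 0.672) over all 10 libraries and 0.28 (SE 0.22, adjusted p = 0.403) without library 4. Asl was at 38.0, 27.6, 32.1, 45.0 and 28.6 in *MYC*-HCC against 37.1, 42.3, 71.5, 39.8 and 42.7 in *MYC*/*Twist1*-HCC, with replicate 3 standing high over the rest of its group, and its log2 difference was 0.42 (SE 0.21, adjusted p = 0.326) over all 10 libraries and 0.53 (SE 0.20, adjusted p = 0.105) without library 4. Nags was at 6.92, 6.58, 6.66, 11.4 and 5.37 in *MYC*-HCC against 7.80, 12.7, 14.3, 6.83 and 9.80 in *MYC*/*Twist1*-HCC. Replicate 4 alone fell within the range of the 4 *MYC*-HCC libraries, and the log2 difference of Nags was 0.47 (SE 0.25, adjusted p = 0.373) over all 10 libraries and 0.63 (SE 0.22, adjusted p = 0.0875) without library 4. Slc25a15 differed least in the cycle, with 22.7 to 30.1 FPKM in *MYC*-HCC, 24.1 to 42.5 FPKM in *MYC*/*Twist1*-HCC and log2 differences of 0.17 and 0.20 with and without library 4.

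Among the enzymes that move nitrogen on and off glutamate, mitochondrial aspartate aminotransferase, Got2 (chr8:95864134-95888547, minus strand), was at 53.2, 47.8, 52.6, 84.3 and 63.9 in *MYC*-HCC against 80.7, 71.8, 99.3, 70.6 and 75.8 in *MYC*/*Twist1*-HCC. Without library 4 the groups did not overlap, and the spread within each was small. On the log2 scale Got2 differed by 0.42 (SE 0.18, adjusted p = 0.281) over all 10 libraries and 0.55 (SE 0.14, adjusted p = 0.0458) without library 4. Its cytosolic partner Got1 was at 39.4, 42.4, 34.7, 42.8 and 34.2 in *MYC*-HCC against 30.4, 35.1, 54.6, 42.4 and 34.4 in *MYC*/*Twist1*-HCC, with log2 differences of 0.00 and 0.04 in the same order. Gls2, the liver glutaminase that frees ammonia near the portal vein, was at 20.9, 20.9, 22.5, 31.3 and 20.8 in *MYC*-HCC against 32.9, 25.9, 49.2, 22.5 and 34 in *MYC*/*Twist1*-HCC. The 4 *MYC*-HCC libraries other than library 4 lay close together under all 5 *MYC*/*Twist1*-HCC replicates, with replicate 4 only just above them. For Gls2 the log2 difference was 0.47 (SE 0.21, adjusted p = 0.308) over all 10 libraries and 0.58 (SE 0.20, adjusted p = 0.0910) without library 4.

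Gpt, the cytosolic alanine aminotransferase used in blood as a sign of liver damage, was at 2.59, 1.90, 2.30, 29.3 and 2.62 in *MYC*-HCC against 4.44, 1.90, 20.9, 4.73 and 6.38 in *MYC*/*Twist1*-HCC. The 4 other *MYC*-HCC values lay close together and 4 of the 5 replicates exceeded them, with a log2 difference of 0.51 (SE 0.79, adjusted p = 0.776) over all 10 libraries and 1.22 (SE 0.53, adjusted p = 0.146) without library 4. The mitochondrial form, Gpt2, was at 54.5, 56.2, 52.6, 132 and 57.0 in *MYC*-HCC against 58.8, 66.2, 63.7, 38.9 and 49.4 in *MYC*/*Twist1*-HCC. Gpt2 was the steadiest of the 40 across the other 4 *MYC*-HCC libraries, whose highest was 1.08 times the lowest, and its log2 difference was -0.27 (SE 0.27, adjusted p = 0.630) over all 10 libraries and -0.02 (SE 0.17, adjusted p = 0.953) without library 4. Glud1 (glutamate dehydrogenase), which releases ammonia inside mitochondria, was at 129, 109.7, 135, 251 and 160.2 in *MYC*-HCC against 140.3, 142, 157, 118 and 214 in *MYC*/*Twist1*-HCC. Its groups overlapped and the log2 difference was 0.01 (SE 0.24, adjusted p = 0.992) over all 10 libraries and 0.19 (SE 0.19, adjusted p = 0.519) without library 4. Oat (ornithine aminotransferase) was at 29.4, 17.0, 26.8, 10.2 and 27.6 in *MYC*-HCC against 15.8, 20.0, 28.7, 33.7 and 39.1 in *MYC*/*Twist1*-HCC, and here library 4 was the lowest of the 10. The log2 differences of Oat, in the same order, were 0.33 and 0.08. Prodh (proline dehydrogenase) ranged from 4.81 to 17.8 FPKM in *MYC*-HCC and from 1.98 to 16.6 FPKM in *MYC*/*Twist1*-HCC, with log2 differences of -0.28 and 0.05. Exons of 6 of the 40 genes, Got2, Gls2, Gstz1, Nags, Sds and Bhmt, overlap exons of a gene on the opposite strand, and without strand in the counting such reads cannot be told apart.

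Tryptophan is opened by Tdo2 (tryptophan dioxygenase), and its product kynurenine is passed on by Kmo (kynurenine monooxygenase), Kynu (kynureninase) and Haao (hydroxyanthranilate dioxygenase) towards NAD. Tdo2 was at 1.63, 0.19, 0.17, 186 and 3.81 in *MYC*-HCC against 3.94, 0.18, 15.9, 1.24 and 0.35 in *MYC*/*Twist1*-HCC. Library 4 was 48.9-fold over the next *MYC*-HCC library, and the remaining 9 values ran from 0.17 to 15.9 FPKM. Among those 9 the groups overlapped, with replicates 1 and 3 above the 4 *MYC*-HCC libraries. Its log2 difference was -0.64 (SE 1.74, adjusted p = 0.880) over all 10 libraries and 0.92 (SE 1.22, adjusted p = 0.641) without library 4. Haao, the most abundant of these 4 per unit length, was at 152, 105, 179.7, 177 and 128 in *MYC*-HCC against 108, 128, 192, 105 and 167 in *MYC*/*Twist1*-HCC, with a log2 difference of -0.10 (SE 0.22, adjusted p = 0.850) over all 10 libraries and -0.03 (SE 0.23, adjusted p = 0.949) without library 4.

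Kmo was at 1.38, 0.72, 0.29, 12.6 and 2.75 in *MYC*-HCC against 3.93, 14.7, 10.2, 1.24 and 3.11 in *MYC*/*Twist1*-HCC. Replicate 2, the lowest library for Cps1, was the highest of all for Kmo, and the log2 difference was 1.45 (SE 0.91, adjusted p = 0.437) over all 10 libraries and 2.17 (SE 0.74, adjusted p = 0.0811) without library 4. Kynu was at 6.77, 4.08, 4.93, 12.6 and 6.41 in *MYC*-HCC against 9.88, 10.03, 7.82, 5.51 and 12.9 in *MYC*/*Twist1*-HCC, with 4 of the 5 replicates over the 4 other *MYC*-HCC libraries. For Kynu the difference was 0.46 (SE 0.31, adjusted p = 0.468) over all 10 libraries and 0.70 (SE 0.25, adjusted p = 0.0913) without library 4. None of the 4 tryptophan genes passed in either fit.

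Glycine is split in mitochondria by a complex that includes Gldc, the decarboxylase, and Amt, the aminomethyltransferase. These partners differed in sign. Gldc was at 81.8, 95.7, 67.3, 93.6 and 112 in *MYC*-HCC against 105, 135, 162, 96.2 and 140.3 in *MYC*/*Twist1*-HCC, and its log2 difference was 0.50 (SE 0.19, adjusted p = 0.248) over all 10 libraries and 0.52 (SE 0.20, adjusted p = 0.113) without library 4. Amt was at 27.3, 33.4, 32.2, 18.7 and 21.6 in *MYC*-HCC against 16.1, 13.7, 27.0, 20.4 and 19.7 in *MYC*/*Twist1*-HCC. Replicate 3 lay within the range of the *MYC*-HCC libraries other than library 4, and the other 4 replicates lay below that range. The log2 difference of Amt was -0.46 (SE 0.22, adjusted p = 0.321) over all 10 libraries and -0.58 (SE 0.21, adjusted p = 0.0947) without library 4, and it was called lower in the fit with library weights, at -0.60 (adjusted p = 0.0315). Agxt, which turns glyoxylate into glycine in peroxisomes, was at 9.30, 3.16, 8.30, 1.01 and 4.84 in *MYC*-HCC against 5.75, 3.84, 5.98, 4.33 and 8.11 in *MYC*/*Twist1*-HCC, the lowest value of the 10 being that of library 4, and its log2 differences were 0.37 and -0.12.

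Gluconeogenesis starts at Pcx (pyruvate carboxylase), passes through Pck1 (phosphoenolpyruvate carboxykinase) and Fbp1 (fructose bisphosphatase), and ends at G6pc (glucose-6-phosphatase). Pcx (chr19:4510472-4621752, plus strand) was at 62.3, 23.6, 44.0, 116 and 66.1 in *MYC*-HCC against 129, 84.5, 169, 126 and 152 in *MYC*/*Twist1*-HCC. All 5 replicates exceeded the 4 *MYC*-HCC libraries other than library 4, the closest values being 84.5 and 66.1 FPKM. The difference of Pcx on the log2 scale was 1.23 (SE 0.37, adjusted p = 0.178) over all 10 libraries and 1.50 (SE 0.31, adjusted p = 0.0282) without library 4. Pck1 was at 3.32, 0.39, 0.65, 14.0 and 9.47 in *MYC*-HCC against 12.0, 2.88, 5.26, 3.69 and 3.19 in *MYC*/*Twist1*-HCC. *MYC*-HCC libraries 4 and 5 and replicate 1 were the highest and the groups overlapped, with log2 differences of 0.77 and 1.35 in the same order.

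G6pc was at 3.90, 3.07, 8.02, 132 and 25.2 in *MYC*-HCC against 9.23, 0.61, 11.5, 36.1 and 21.3 in *MYC*/*Twist1*-HCC. It reached its lowest value in replicate 2 and its highest in library 4, and its log2 difference was -0.51 (SE 1.20, adjusted p = 0.855) over all 10 libraries and 0.34 (SE 1.04, adjusted p = 0.856) without library 4. Fbp1 was at 2.60, 0.30, 0.61, 255 and 6.73 in *MYC*-HCC against 6.31, 1.14, 45.9, 2.43 and 2.39 in *MYC*/*Twist1*-HCC. Library 4 held 38.0 times the next *MYC*-HCC value, replicate 3 stood over its own group, and the log2 difference of Fbp1 was 0.16 (SE 1.62, adjusted p = 0.970) over all 10 libraries and 1.64 (SE 1.08, adjusted p = 0.325) without library 4. Of these 4 genes only Pcx passed without library 4.

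**Figure D4:**
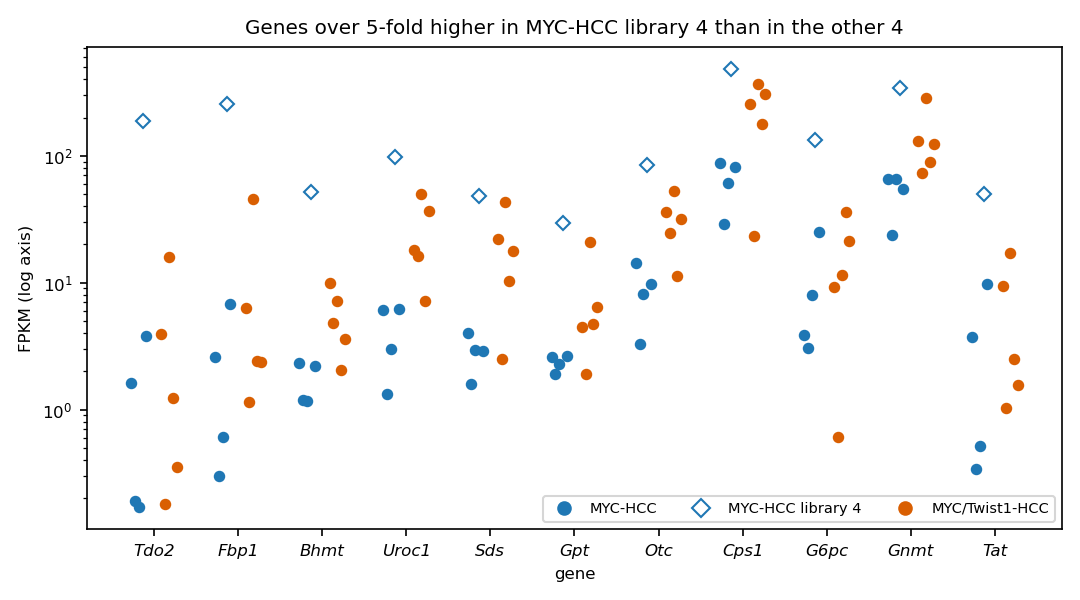
Each point is the FPKM of a library (log axis) for the 11 genes that were over 5-fold higher in *MYC*-HCC library 4 (open diamonds) than in any other *MYC*-HCC library. Library 4 is also above all 5 *MYC*/*Twist1*-HCC tumours for each of the 11, and Tdo2, Fbp1, G6pc and Tat span over 2 orders of magnitude.

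The 40 genes did not vary alike within a group. Without library 4, the highest *MYC*-HCC value was over 5 times the lowest for 6 genes, and within *MYC*/*Twist1*-HCC this held for 11. The 11 genes over 5-fold higher in library 4 than in any other *MYC*-HCC library were Bhmt, Cps1, Fbp1, G6pc, Gnmt, Gpt, Otc, Sds, Tat, Tdo2 and Uroc1. Library 4 was below the other 4 *MYC*-HCC libraries for 3 genes, Oat, Agxt and Amt. How often each of these patterns held over all genes was not counted. For the 10 called genes the adjusted p over all settings tried ran, in limma, over 0.00931 to 0.206 for Fah, 0.0180 to 0.454 for Hgd, 0.0452 to 0.540 for Gstz1, 0.0127 to 0.341 for Hal and 0.0360 to 0.676 for Uroc1. It ran over 0.0257 to 0.458 for Cbs, 0.0305 to 0.571 for Cth, 0.0447 to 0.701 for Otc, 0.0180 to 0.481 for Got2 and 0.0140 to 0.351 for Pcx.

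Several of these enzymes have a partner form, used in other cells, as Mat2a beside Mat1a, or in mitochondria, as Gpt2 beside Gpt. The log2 ratio of Mat1a to Mat2a, the form of proliferating cells, overlapped between the groups, at -0.26 to 2.88 in *MYC*-HCC and -1.19 to 3.13 in *MYC*/*Twist1*-HCC. So did those of Pck1 to Pck2 and of Gpt to Gpt2, and that of a glycolytic pair, Pklr to Pkm. With and without library 4, the log2 differences were -0.03 and -0.05 for Mat2a, 0.18 and 0.36 for Pck2, -0.76 and -1.16 for Pkm, 0.18 and -0.13 for Hk2, -0.62 and -0.82 for Aldoa and -0.50 and -0.17 for Pklr, and none of these 6 passed in either fit.

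**Figure D5:**
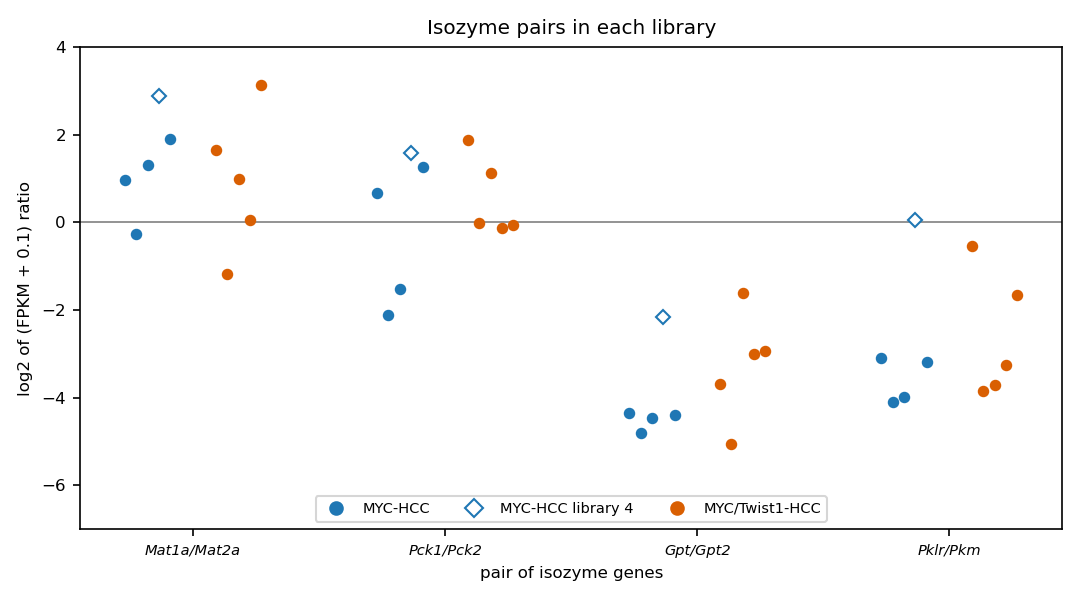
Each point is the log2 ratio of FPKM + 0.1 of the first gene named to that of the second in a library, for 4 pairs. The groups overlap in all 4, and *MYC*-HCC library 4 (open diamonds) is the highest of the 10 libraries for Pklr to Pkm.

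Other genes of the same pathways were counted from lists. With all 10 libraries 0 of them passed in either direction. Without library 4, where 4.33% of all genes were called higher and 4.72% lower, 2 of 5 tested genes of ammonia handling given here were called higher. The 2 were Slc25a13, the liver aspartate and glutamate carrier that feeds Ass1, whose log2 difference was 0.82 (SE 0.12, adjusted p = 0.0210), and Car5a, the mitochondrial carbonic anhydrase that supplies bicarbonate to Cps1. Car5a was low, at 0.35, 0.03, 0, 2.64 and 0.59 in *MYC*-HCC against 3.38, 1.48, 8.41, 1.38 and 4.45 in *MYC*/*Twist1*-HCC. The log2 difference of Car5a was 3.65 (SE 0.68, adjusted p = 0.0245) without library 4, a value that rests on the pseudocount because of the 0, and it ran from 1.47 to 4.03 over all settings. Arg1, the last urea cycle enzyme, picked after its values were seen, was at 138, 54.5, 133, 463 and 50.4 in *MYC*-HCC against 157, 99.5, 210.1, 78.1 and 82.9 in *MYC*/*Twist1*-HCC. Its groups overlapped, with a log2 difference of -0.03 (SE 0.56, adjusted p = 0.985) over all 10 libraries and 0.46 (SE 0.40, adjusted p = 0.455) without library 4.

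Of 11 further genes of aromatic amino acid and histidine breakdown 3 were called higher and 0 lower in that fit (4.33% and 4.72% of all genes), with log2 differences of 1.64 (SE 0.35, adjusted p = 0.0291) for Amdhd1, the enzyme between Uroc1 and Ftcd, 1.87 (SE 0.34, adjusted p = 0.0235) for Kyat3, a kynurenine aminotransferase, and 2.04 (SE 0.39, adjusted p = 0.0259) for Acmsd, of the kynurenine route. Acmsd was near the floor, at 0.07, 0.03, 0.04, 2.78 and 0.15 in *MYC*-HCC against 0.85, 0.65, 0.58, 0.67 and 0.30 in *MYC*/*Twist1*-HCC. Its log2 difference therefore rests on the pseudocount, and library 4 was its highest library. Apart from library 4, Acmsd reached 0.5 FPKM only in *MYC*/*Twist1*-HCC libraries. Without library 4 it was therefore kept only through the group where it is high, and its call, 1 of the 3, carries little weight. Hoga1, a mitochondrial enzyme of hydroxyproline breakdown, was the 1 called of 24 genes of glycine, sulfur and proline use, a share close to the 4.33% of all genes, its log2 difference being 1.58 (SE 0.36, adjusted p = 0.0336). Gys2 and Pygl, the liver glycogen synthase and phosphorylase, were the 2 called of 9 further genes of gluconeogenesis and glycogen (4.33% of all genes), with log2 differences of 3.97 (SE 0.65, adjusted p = 0.0210) and 2.41 (SE 0.54, adjusted p = 0.0333). With all 10 libraries the log2 differences of these 8 genes were 0.57 to 3.21 and their adjusted p was 0.153 to 0.446. Of 10 genes taken as periportal, 8 of which are among the 40, 1 passed (Hal), and of 5 tested genes taken as pericentral 0 did.

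Markers of hepatocytes and of some other cells also passed the test without library 4, again with 0 calls in any list over all 10 libraries. Of 10 secreted hepatocyte proteins 6 were called higher and 0 lower without library 4 (4.33% and 4.72% of all genes), and their summed level was 3599 to 8176 FPKM in the other 4 *MYC*-HCC libraries, 14113 FPKM in library 4 and 9194 to 24243 FPKM in *MYC*/*Twist1*-HCC. For transferrin (Trf) the log2 difference was 2.02 (SE 0.42, adjusted p = 0.0912) over all 10 libraries and 2.11 (SE 0.44, adjusted p = 0.0291) without library 4, and for fetuin (Ahsg) it was 2.35 (SE 0.61, adjusted p = 0.141) over all 10 libraries and 2.81 (SE 0.50, adjusted p = 0.0212) without library 4. Of 7 cell cycle genes 1 was called lower, Cdk1, with a log2 difference of -0.52 (SE 0.32, adjusted p = 0.423) over all 10 libraries and -0.80 (SE 0.21, adjusted p = 0.0452) without library 4, and their sum was 221 to 269.9 FPKM in the other 4 *MYC*-HCC libraries, 136 FPKM in library 4 and 119.6 to 209 FPKM in *MYC*/*Twist1*-HCC. All 4 erythroid markers were called higher, their sums running from 37.8 to 133 FPKM in *MYC*-HCC and from 161 to 2074 FPKM in *MYC*/*Twist1*-HCC, and 3 of 4 tested neutrophil markers were, with sums of 1.93 to 6.39 and 11.8 to 457 FPKM (Ly6g, a defining marker of neutrophils, was at 0 to 0.05 and 0 to 1.98 FPKM). Of the macrophage markers 0 of 6 passed (75.8 to 170.4 and 78.2 to 235 FPKM), and 0 of 4 endothelial markers did (4.58 to 22.6 and 5.10 to 16.4 FPKM). Of 5 oncofetal genes 1, Igf2, was called higher, of 2 tested intestinal genes 1, Vil1, was called lower, and none of 4 tested stellate cell, 2 bile duct, 1 pancreatic and 1 lymphocyte gene was called. Kidney markers were at 0.03 FPKM or less, summed, in all 10 libraries, and 2 of their 3 genes were at 0 throughout. The part of these markers in the differences of the 40 genes was not tested.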

How the data were processed

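RNA of 5 *MYC*-HCC and 5 *MYC*/*Twist1*-HCC tumours was sequenced single-end on a BGISEQ instrument. The deposited table holds FPKM per gene symbol, made by the authors; the paper names RSEM, while the submitters' processing notes list Trimmomatic, STAR, Picard, featureCounts, DESeq2 and mm10, with no versions. It holds no raw counts, so no count model was used. Depth was estimated from gene models under 150 bp, where 99.4% to 100% of values in each library were whole reads within 0.1, and limits the precision of low genes. Values at 0 made up 60.6% of the table, and no libraries had identical values.

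Genes with 0.5 FPKM or more in 5 of the 10 libraries (12146) were tested with limma 3.58.1 in R 4.3.3 (trend, two-sided, Benjamini-Hochberg over all genes tested, threshold 0.05) on log2(FPKM + 0.1), a scale that understates changes of low genes. The fit was tested on simulated, independent, normally distributed values with planted changes. No outlying library was simulated, so that run does not bear on calls that depend on *MYC*-HCC library 4. The alternatives were pseudocounts of 1 and 0.01, no filter, a mean of 1 FPKM or more, median-ratio scaling, quantile normalization, no variance trend, library quality weights and each of the 10 libraries left out. Coordinates are from GENCODE vM21 (GRCm38), and promoters from RefSeq.

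The 40 genes and all lists were chosen with earlier results of these data known. All 40 were named. Values in every library were given for those with an unadjusted p under 0.05 with all libraries or without *MYC*-HCC library 4 and for up to 2 per role with the highest mean, and for further members chosen after their values were seen. Up to 4 genes per other list were picked by smallest p. Some genes of the other lists are not reported here. No protein sequences were used here.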

Additional observations from a re-analysis of the deposited data

Results flagged for a closer look

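Among the 80 groups of 5 values tested (40 genes in each tumour type), 8 held a library whose gap to the next value was over 0.71 of the whole range on the log2(FPKM + 0.1) scale (Dixon). For independent, normally distributed values chance flags about 1 in 20 groups, while these groups share the same 10 libraries. *MYC*-HCC library 4 was the highest in 6 of the 8, at 31.3 FPKM for Gls2 (20.8 to 22.5 FPKM in the other 4), 29.3 FPKM for Gpt (1.90 to 2.62 FPKM), 132 FPKM for Gpt2 (52.6 to 57.0 FPKM), 17.8 FPKM for Prodh (4.81 to 6.35 FPKM), 48.2 FPKM for Sds (1.58 to 4.03 FPKM) and 51.6 FPKM for Bhmt (1.16 to 2.32 FPKM). In *MYC*/*Twist1*-HCC, replicate 2 was low for Cps1 at 23.3 FPKM (176.8 to 367 FPKM in the others), and replicate 3 was high for Asl at 71.5 FPKM (37.1 to 42.7 FPKM).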

How the results depend on the processing

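Of the 40 genes, 27 had a positive and 3 a negative log2 difference in every setting. The count of genes called higher was 0 under all 18 alternatives except the quality weights (10) and without *MYC*-HCC library 4 (10), and the count called lower was 0 except under the weights (1, Amt). Leaving out a library gave 1 to 11 genes without overlap (11 without *MYC*-HCC library 4, at most 2 otherwise) and a median log2 difference of 0.35 to 0.75. Of the 70 named genes, 0 passed with all 10 libraries, 27 passed with quality weights and 28 without *MYC*-HCC library 4. Over all genes, 8.3% were called higher and 12.1% lower with quality weights, and 4.33% and 4.72% without library 4. Many named genes outside the 40 were picked by smallest p or after their values were seen. That choice raises the counts of named genes, so they are not a result about these genes. No paired analysis was possible because the 5 *MYC*-HCC columns share a heading and carry no replicate numbers. Acmsd was not tested under the mean of 1 FPKM.

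The sign of the log2 difference changed for 13 named genes, none of them called in those settings, and the cause was not tested. With quality weights it was -0.0571 for Got1, -0.18 for Oat, 0.0591 for Prodh, 0.74 for Tdo2, -0.37 for Agxt, 0.71 for G6pc, -0.0989 for Hk2 and 0.16 for Arg1. With a pseudocount of 1 it was -0.13 for Tat and -0.16 for Fbp1, and with quantile normalization 0.0617 for Mat2a and 0.0721 for Arg1. Leaving out each library in turn gave -0.12 to 0.19 for Glud1, -0.12 to 0.086 for Got1, -0.67 to 0.083 for Prodh, -0.63 to 1.08 for Tat, -1.46 to 0.92 for Tdo2, -0.12 to 0.66 for Agxt, -0.76 to 0.014 for Mat1a, -1.01 to 0.41 for G6pc, -0.69 to 1.64 for Fbp1, -0.25 to 0.28 for Mat2a, -0.13 to 0.36 for Hk2 and -0.34 to 0.46 for Arg1. Depth limits the genes under 1 FPKM in some libraries, such as Tdo2, Fbp1 and Tat.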

Other observations

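Enzymes that break down branched-chain amino acids and lysine in mitochondria were also measured. Without *MYC*-HCC library 4, 8 of 21 were called higher in *MYC*/*Twist1*-HCC and 0 lower (4.33% and 4.72% of all genes), and with all 10 libraries 0 were. They were Bckdha and Dbt of the branched-chain ketoacid dehydrogenase, Acadsb of isoleucine and Mccc1 of leucine breakdown, Aldh6a1 of valine breakdown, Pcca and Pccb of propionyl-CoA carboxylase, and Dhtkd1 of lysine breakdown. Acadsb was at 6.48, 2.81, 4.88, 13.0 and 3.91 in *MYC*-HCC against 8.92, 9.95, 11.0, 8.60 and 15.8 in *MYC*/*Twist1*-HCC. Apart from library 4 the groups did not overlap, and the log2 difference was 0.96 (SE 0.36, adjusted p = 0.245) over all 10 libraries and 1.27 (SE 0.25, adjusted p = 0.0259) without library 4. Dhtkd1 was at 12.6, 3.81, 5.14, 14.6 and 3.11 in *MYC*-HCC against 15.2, 21.7, 12.1, 14.0 and 13.3 in *MYC*/*Twist1*-HCC. Replicate 3 lay just inside the range of the *MYC*-HCC libraries other than library 4, and replicates 4 and 5 lay below library 4. Its log2 difference was 1.20 (SE 0.41, adjusted p = 0.223) over all 10 libraries and 1.49 (SE 0.36, adjusted p = 0.0370) without library 4. Gcdh (glutaryl-CoA dehydrogenase) was at 51.3, 25.1, 43.6, 45.3 and 39.6 in *MYC*-HCC against 64.5, 55.4, 93.4, 51.7 and 80.2 in *MYC*/*Twist1*-HCC. Its groups did not overlap with all 10 libraries, yet its log2 difference of 0.75 (SE 0.23, adjusted p = 0.178) over all 10 libraries and 0.80 (SE 0.24, adjusted p = 0.0588) without library 4 did not pass in limma.

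Regulators of these pathways gave 2 calls higher and 0 lower of 13 without library 4 (4.33% and 4.72% of all genes). The insulin receptor (Insr) was at 9.69, 6.72, 7.31, 9.23 and 8.36 in *MYC*-HCC against 15.2, 14.2, 9.72, 10.3 and 13.4 in *MYC*/*Twist1*-HCC. Its groups did not overlap, by a margin of 9.69 to 9.72 FPKM, and its log2 difference was 0.59 (SE 0.17, adjusted p = 0.163) over all 10 libraries and 0.63 (SE 0.18, adjusted p = 0.0499) without library 4. Ppargc1a, a coactivator that induces gluconeogenic genes, was at 0.16, 0.03, 0.06, 5.91 and 0.23 in *MYC*-HCC against 1.61, 3.40, 1.56, 0.29 and 1.68 in *MYC*/*Twist1*-HCC, chosen after its values were seen. Library 4 was the highest of the 10 and the other 4 *MYC*-HCC libraries the lowest, with a log2 difference of 1.87 (SE 0.99, adjusted p = 0.365) over all 10 libraries and 2.84 (SE 0.58, adjusted p = 0.0266) without library 4. The second value rests on the pseudocount, and the difference ran from 0.65 to 2.84 over all settings. Apart from library 4, Ppargc1a reached 0.5 FPKM only in *MYC*/*Twist1*-HCC libraries. Without library 4 it was therefore kept only through the group where it is high, and its call carries little weight. Klf15, a fasting factor that drives amino acid breakdown, and Hnf4a, a hepatocyte identity factor, did not pass in either fit. The log2 difference of Klf15 was 0.73 (SE 0.26, adjusted p = 0.229) over all 10 libraries and 0.77 (SE 0.27, adjusted p = 0.0894) without library 4, and that of Hnf4a was 0.49 (SE 0.19, adjusted p = 0.251) over all 10 libraries and 0.53 (SE 0.19, adjusted p = 0.10) without library 4.

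Of 9 genes of amino acid and polyamine synthesis 1 was called higher and 1 lower without library 4 (4.33% and 4.72% of all genes). Psat1, of serine synthesis, was at 157, 137, 146, 35.9 and 128 in *MYC*-HCC against 194, 250.03, 213, 213 and 190.2 in *MYC*/*Twist1*-HCC. Library 4 was the lowest of the 10 and the groups did not overlap with or without it, and the log2 difference was 0.97 (SE 0.36, adjusted p = 0.245) over all 10 libraries and 0.58 (SE 0.14, adjusted p = 0.0367) without library 4. Odc1, the first enzyme of polyamine synthesis and a known MYC target, was at 42.6, 59.8, 49.3, 22.9 and 33.8 in *MYC*-HCC against 19.7, 23.8, 34.1, 28.6 and 13.8 in *MYC*/*Twist1*-HCC, with a log2 difference of -0.79 (SE 0.30, adjusted p = 0.248) over all 10 libraries and -0.98 (SE 0.26, adjusted p = 0.0460) without library 4. Library 4 was again the lowest of its group.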
